A study of Mus musculus with 12 samples.

Results

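The nuclei titled Late and Reactivated were compared, as one side of 6 libraries, with the nuclei titled Basal and Early, as the other side of 6 libraries. Each side was the mean of its 2 group means, and a gene entered when its count was 10 or more in at least 3 of the 12 libraries. That rule kept 15668 of the 24015 rows of the deposited table. All 12 libraries hold RNA of hippocampal nuclei from mice of genotype +/+ that carry ArcCreERT2 and an R26R-STOP-floxed reporter of eYFP, a yellow fluorescent protein. In them a Cre recombinase that needs tamoxifen is made where Arc is active and its action switches on the reporter for good. By the protocol, every mouse had 24 h of darkness, then 4-hydroxytamoxifen 1 h before contextual fear conditioning. Brains were taken 1.5 to 2 h later, or on day 5 after 48 h of darkness and a return to the light cycle, and part of the day 5 mice had first met the fear cue again. Sorting of the nuclei, after 1% paraformaldehyde, used NeuN, Arc and GFP antibodies, at 10000 nuclei per condition from pools of 10 to 12 mice, so a replicate is a pool and each group has 3. The treatment entry of all 12 samples is the same and puts the collection on day 0. Groups were therefore read from the titles, the later collection of Late and Reactivated was read from titles and protocol together, and no label ties a sorting gate to a title.

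Neurons that are active during learning switch on immediate early genes such as Arc, Fos and Npas4 within minutes, and these encode transcription factors and synaptic proteins that act on later genes. The neurons marked in this way are studied as an engram, the cell ensemble whose activity is thought to store a memory and whose reactivation accompanies recall. RNA of nuclei is rich in unspliced transcripts and in RNAs that stay in the nucleus, among them the precursor of ribosomal RNA and the small nucleolar RNAs (snoRNAs) that guide its modification.

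Nuclear counts per library lay between 4838166 and 11120255. The share of them taken by Rn45s, the 45S precursor of ribosomal RNA, was 4.72%, 5.17% and 12.2% (Basal), 6.23%, 6.36% and 12.9% (Early), 35.7%, 36.5% and 27.9% (Late) and 27.7%, 18.8% and 20.7% (Reactivated). All 6 libraries of the later side lay above all 6 of the other, with means of 27.9% ± 7.34 and 7.94% ± 3.64 (SD, n = 6 each). The difference was 19.9 percentage points (exact two-sided permutation test over the 6 against 6 libraries, p = 0.002165, the smallest that 924 splits can give). The test treats the 6 libraries of a side as exchangeable, although each side joins separate groups. Residuals of same-numbered Basal and Early libraries correlated at r of 0.31, 0.132 and 0.461. For Late with Reactivated r was 0.057, 0.064 and 0.153. Whether same-numbered libraries share pools was not tested. If they do, this p-value is too small. Basal 3 and Early 3 exceeded the other Basal and Early libraries. On the first principal component of the log2 values, which held 47.15% of the variance, the Basal and Early libraries lay from -72.33 to -21.28 and the others from 5.94 to 88.72, and Basal 3 and Early 3 lay nearest to the later side. The neuronal genes Rbfox3, which encodes NeuN, and Slc17a7, which encodes the vesicular glutamate transporter of excitatory neurons, were counted in every library, with Slc17a7 at normalized counts of 1578 to 5392.

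**Figure D1:**
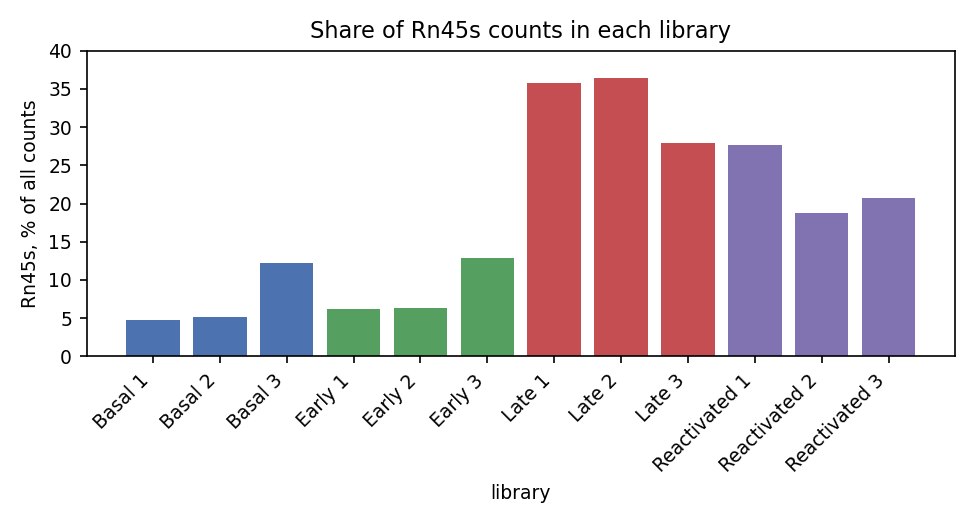
Share of Rn45s in the counts of each library, in percent, with 1 bar for each of the 12 libraries coloured by group. The 6 Late and Reactivated bars lie between 18.8% and 36.5%, and the Basal and Early bars between 4.72% and 12.9%.

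Of the 15668 genes, 8408 differed between the sides (53.7%), 4364 higher in Late and Reactivated (27.9%) and 4044 lower (25.8%), by the quasi-likelihood test of edgeR at an adjusted p of 0.05. The median change was 1.73-fold among the higher and 1.75-fold among the lower genes. At least 2-fold changes were seen in 1542 higher and 1477 lower genes, and at least 4-fold changes in 281 and 243. The 6 libraries of one side did not overlap the 6 of the other for 1397 genes that lay higher (8.92% of all tested) and 1548 that lay lower (9.88%). With the Rn45s share of each library added to the fit, 6 genes passed, 1 higher and 5 lower, and 1693 had an unadjusted p under 0.05. Of the 8408 genes, 5762 (68.5%) kept their sign in that fit and 2646 turned. Between-group differences made up 89.9% of the variance of the share, and adding it widened the standard error of the side difference 2.96-fold by the design alone, so the side and the Rn45s share cannot be told apart in these libraries. The 6 genes, singled out after their values were seen, were 4933401D09Rik, which was higher, and Dsp, F830016B08Rik, Gsta3, Mir6982 and Tigd3, which were lower.

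How many genes count as higher rests on how libraries are scaled. TMM, the scaling used throughout, left the median log2 difference of all genes at 0.00. The split was 3312 higher and 5267 lower with upper quartile scaling, which set that median to -0.16. It was 2807 and 6074 with equal totals outside Rn45s (median -0.26), 1418 and 9035 with equal totals (median -0.61) and 1668 and 3788 with the deposited values unscaled (median -0.24). Directions below are therefore relative to the bulk of the genes. Equal totals lower nearly every difference by about that median, so a rise smaller than it can change sign there. Without Basal 3 and Early 3, a setting chosen after seeing the data, 8954 genes passed.

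Both groups of a side did not always move together. A total of 1089 genes were higher in each of the 4 pairs of groups between the sides (6.95%) and 1070 were lower in each (6.83%). These counts fell to 441 and 541 without the first Early library and to 415 and 526 without the second. Of the 4364 higher genes, 86.3% had a positive difference in all 4 pairs, and of the 4044 lower genes 90.3% had a negative one. Within sides, 944 genes differed between Early and Basal (6.03%) and 3541 between Reactivated and Late (22.6%). The first count was 488 without Basal 2 and 549 without Early 1, and the second 2135 without Late 1 and 2183 without Late 2. Among the genes higher on the later side, 1214 were lower in Reactivated than in Late and 270 were higher. Among the genes lower on that side, 619 were higher in Reactivated than in Late and 189 were lower. Late against Basal and Reactivated against Early share no library. Across the 15668 genes, which are not independent replicates, their log2 differences correlated with Pearson's r = 0.473 and Spearman's rho = 0.527. Both were past the threshold for 2855 genes, 37.1% of the 7687 of the first and 69.5% of the 4108 of the second, and 2663 of the 2855 had the same sign. For Late against Early and Reactivated against Basal, r was 0.457, rho was 0.51 and 3116 of 3435 shared genes had the same sign.

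Small noncoding RNAs of the nucleolus and of RNA processing were higher on the later side. Of 97 snoRNA and small Cajal body RNA (scaRNA) genes tested, 83 rose and 2 fell, with a median log2 difference of 1.82, against 27.9% and 25.8% of all genes and a median of 0.00. Of 33 Snora genes, whose box H/ACA RNAs guide pseudouridylation, 33 rose (median 2.44). Of 55 Snord genes, whose box C/D RNAs guide 2'-O-methylation, 42 rose and 2 fell (median 1.47), and of 9 Scarna genes 8 rose. Of the 97, 9 passed the count filter only through later libraries, and 6 of these rose. The count was 83 and 1 with a correction for GC content. With the Rn45s share in the fit 0 passed and the median was 0.70. Summed over all snoRNA and scaRNA genes, normalized counts were 26553 to 56788 (Basal), 22704 to 52372 (Early), 133131 to 170638 (Late) and 58209.6 to 142675 (Reactivated). The highest Basal library lay just below the lowest Reactivated library.

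Snora30 had normalized counts of 25.9, 25.8 and 72.5 (Basal), 25.1, 25.5 and 63.5 (Early), 1852, 1684 and 2688 (Late) and 208, 125 and 169 (Reactivated). Its sides did not overlap, and the log2 difference was 3.84 ± 0.29, adjusted p = 3.79e-07 (edgeR). Snord33, which guides methylation of ribosomal RNA, was at 16.8, 14.6 and 46.6 (Basal), 17.7, 21.4 and 36.7 (Early), 2809, 2548 and 4687 (Late) and 193, 45.8 and 81.7 (Reactivated). Its second Reactivated library lay below the third Basal library, so the sides overlapped (4.46 ± 0.36, adjusted p = 7.46e-07, edgeR). In both genes the Late libraries were the highest of all, and for Snord33 the log2 difference of Reactivated from Late was -5.02 ± 0.48, adjusted p = 4.92e-06 (edgeR). Scarna2, an RNA of Cajal bodies, had means of 1158 ± 58.1 in Late, 89.5 ± 60.6 in Reactivated, 33.8 ± 20.2 in Basal and 20.5 ± 8.55 in Early (SD, n = 3). Snord58b went the other way, with 2.4, 1.32 and 3.74 in Late against 72.9 ± 43.8 in Basal and 99.3 ± 11.4 in Reactivated.

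Most snoRNAs are cut from introns of other genes. Of 91 tested genes that span a snoRNA or scaRNA gene by the RefSeq annotation, 19 rose (20.9%) and 25 fell (27.5%), with a median of -0.13. Of the genes that span none, 27.6% rose and 26.0% fell, so these shares lie near those of other genes. Snora65 rose by 3.97 ± 0.37, whereas its host Rpl12, a ribosomal protein gene, differed by 0.19 ± 0.15 and did not pass. Snord33 lies in Rpl13a, which rose by 0.81 ± 0.15. No test compared a snoRNA with its host, and reads that a host and its snoRNA share cannot be told apart in a count per gene.

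Of the 9 entries tested on the structural RNA list, which holds Rn45s and also the protein-coding gene Lars2, 7 rose and 0 fell (median 2.09). Without Rn45s itself 6 of 8 rose (median 1.81), and with the Rn45s share in the fit 0 of these 8 passed and their median was -0.19. Rpph1, the RNA component of RNase P, which trims transfer RNA precursors, was at 2292, 1879.9 and 4767 (Basal), 2862, 2188 and 5308 (Early), 44604, 44831 and 16330.4 (Late) and 18111, 10599 and 13294 (Reactivated). The lowest later value was 10599 and the highest of the other side was 5308 (2.79 ± 0.31, adjusted p = 7.22e-06, edgeR). Rmrp, the RNA of RNase MRP, rose by 1.52, and Vaultrc5, a vault RNA, by 2.09 ± 0.29. Rnu12 and Terc, the telomerase RNA, did not pass. Lars2, which encodes a leucyl-tRNA synthetase of mitochondria, was high in Reactivated alone, with 383325 ± 75267 there, 70117 ± 28077 in Late, 45691 ± 44269 in Early and 31159 ± 23878 in Basal (SD, n = 3). It took 3.54% to 4.61% of all counts in the Reactivated libraries and 0.18% to 1.19% in the others. Whether all these reads come from its messenger RNA was not tested.

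Long noncoding RNAs were lower more often than higher. Of the 969 tested genes that RefSeq classes as lncRNA, 133 rose (13.7%) and 467 fell (48.2%), with a median of -0.65. Of all genes 27.9% were higher and 25.8% lower. On the list of 16 abundant nuclear long noncoding RNAs 5 rose and 4 fell, near the shares of all genes. The counts were 6 and 2 with the GC correction and 1 and 9 with equal totals. Kcnq1ot1, the imprinted transcript that silences genes around it and lies antisense to Kcnq1, was at 91461, 95559 and 97142 (Basal), 93098, 107316 and 98275 (Early), 38841, 38054 and 41731 (Late) and 56554, 57865 and 64799.9 (Reactivated). The sides did not overlap, and it fell by 1.00 ± 0.09 on the log2 scale (adjusted p = 1.08e-06, edgeR). Whether the counting used strand is not given in the sources used here. Gas5, a host of snoRNAs, rose by 1.54 ± 0.25, while Malat1, the most abundant of these RNAs, fell by 0.32 on the log2 scale, a change that turned to 0.02 with the GC correction.

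MicroRNA genes showed no common direction, with 33 of 161 rising and 35 falling (median -0.21, and 0.10 without Basal 3 and Early 3). Of all genes 27.9% were higher and 25.8% lower. Of the 161, 57 passed the count filter only through Basal and Early libraries and 45 only through later ones. The 2 with the smallest p-values rose, and both lie within the span of another gene. Their mature RNAs are printed from RefSeq (GRCm38.p6) to show that they share no seed. The seed, bases 2 to 8, is in capitals.
miR-6516-5p: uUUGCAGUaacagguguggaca
miR-6516-3p: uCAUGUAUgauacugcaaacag
miR-3068-5p: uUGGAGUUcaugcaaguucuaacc
miR-3068-3p: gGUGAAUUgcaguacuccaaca
Mir6516, within Snhg20, was at 19.4, 13.5 and 21.5 (Basal), 9.39, 26.2 and 38.4 (Early), 1250.1, 1319.7 and 986 (Late) and 118, 43.1 and 71.0 (Reactivated), without overlap (3.78 ± 0.28, adjusted p = 3.66e-07, edgeR). Mir3068, within Alkbh1, rose by 4.32 ± 0.32, and Alkbh1 differed by -0.21 ± 0.14 and did not pass. Each Late library was above each Reactivated library in both. Mir6982 and Mir7220 both lie in Camk2a, which encodes a calcium-dependent kinase of the synapse. Mir6982 was at 286, 281 and 477 (Basal), 192, 199 and 423 (Early), 2.40, 2.64 and 3.74 (Late) and 705, 533 and 529 (Reactivated). It was near 0 in Late alone and highest in Reactivated, so its lower mean on the later side was that of Late. Mir7220 was lower in both groups, with 7.44 ± 1.27 in Late and 43.1 ± 12.0 in Reactivated, against 133 ± 48.3 and 117 ± 15.2 in Basal and Early, while Camk2a itself rose by 0.33 ± 0.11.

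Immediate early genes were higher on the later side. Of 20 tested, 12 rose and 1 fell, with a median log2 difference of 0.83. With equal totals 7 rose and 3 fell, with a median of 0.22. With the GC correction 9 rose and 2 fell, with a median of 0.37, and with the Rn45s share in the fit 0 passed and the median was 0.80. In bulk nuclei, more RNA per nucleus and a larger share of nuclei that express a gene cannot be told apart. Basal was the lowest group. The summed normalized counts of the list were 1698 to 2126 (Basal), 2789 to 3300.5 (Early), 3301 to 3461 (Late) and 3918 to 5015 (Reactivated). In Early against Basal, 6 of these 20 genes rose and 2 fell, against 3.36% and 2.66% of all genes. In Late against Early 4 rose and 2 fell, near or below the shares of all genes, which were 22.0% higher and 20.3% lower. In Reactivated against Early 8 rose and 0 fell, where 13.5% of all genes were higher and 12.7% lower.

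Arc, whose protein traffics receptors at the synapse and whose promoter drives the Cre of these mice, was at 150.3, 102 and 183 (Basal), 554, 337 and 415 (Early), 602, 635 and 541 (Late) and 499.7, 713 and 766 (Reactivated). Every Basal library was below every other library, and the Early library at 554 lay above the lowest values of Late and Reactivated (1.31 ± 0.16, adjusted p = 1.58e-05, edgeR). Fosb, a partner of AP-1 dimers, was at 15.5, 28.1 and 20.8 (Basal), 40.7, 29.0 and 40.1 (Early), 149, 116 and 134 (Late) and 60.6, 64.2 and 68.4 (Reactivated). Its sides did not overlap, and Late was the highest group (1.72 ± 0.18, adjusted p = 3.74e-06, edgeR). Fosl2, of the same family, did not overlap either, at 133, 80.8 and 131 (Basal), 193, 173 and 177 (Early), 305, 325 and 324 (Late) and 299, 532 and 421 (Reactivated) (1.34 ± 0.15, adjusted p = 7.87e-06, edgeR). Npas4, a factor that acts on inhibitory synapses, rose by 0.79 ± 0.13, Nr4a1, a nuclear receptor, by 0.87 ± 0.13 and Fos by 1.14 ± 0.34, from counts of 7.19 ± 3.11 in Basal (SD, n = 3). Npas4, Nr4a1 and Fos each overlapped between the sides, with Early near Late and Reactivated. Egr1 rose by 0.58 ± 0.13, or differed by -0.05 with equal totals, and was high in Early and Reactivated rather than in Late. Its levels were 98.9 ± 15.7, 220.3 ± 41.2, 147 ± 16.5 and 327 ± 52.8 in Basal, Early, Late and Reactivated. Btg2, an antiproliferative early gene, fell by 1.63 on the log2 scale and was already 32.3 ± 7.07 in Early against 116 ± 3.57 in Basal.

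CREB, a factor known to act on many of these genes after calcium entry, binds sites with the core TGACG. This core was searched on both strands, whether or not it was part of a longer site, in RefSeq promoters (GRCm38.p6) from 250 bases before to 50 after the start. It was in 7 of the 10 rising immediate early genes that have a promoter entry. Of the 12053 promoters of genes tested 29.7% held it, as did 31.4% of those of higher genes, 29.6% of those of lower genes and 21.02% of all 27025. The full CREB site was in 0 of the 10, against 3.02% of promoters of genes tested. The AP-1 site and the E-box were also in 0, against 5.17% and 9.72%. These 10 promoters had a median GC content of 65.0% and a median of 23 CpG pairs, against 60.3% and 20 in genes tested. TGACG holds a CpG pair, and the part of base composition in the 7 matches was not tested. The 250 bases before the start of 3 of the 10 genes, both Nr4a genes, which held the most cores, and Npas4, are shown with TGACG or its reverse complement in capitals.
Nr4a1 (chr15:101266596-101266845, plus strand): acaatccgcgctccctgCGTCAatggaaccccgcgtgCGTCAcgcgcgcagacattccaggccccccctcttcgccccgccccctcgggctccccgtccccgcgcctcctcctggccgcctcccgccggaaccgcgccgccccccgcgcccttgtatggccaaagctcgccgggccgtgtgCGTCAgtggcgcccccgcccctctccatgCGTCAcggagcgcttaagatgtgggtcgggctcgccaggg
Nr4a3 (chr4:48045055-48045304, plus strand): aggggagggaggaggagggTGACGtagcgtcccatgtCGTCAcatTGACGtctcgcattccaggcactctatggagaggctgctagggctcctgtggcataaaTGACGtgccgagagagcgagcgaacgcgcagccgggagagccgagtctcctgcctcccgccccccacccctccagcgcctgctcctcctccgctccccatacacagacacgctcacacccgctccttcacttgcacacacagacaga
Npas4 (chr19:4989972-4990221, minus strand): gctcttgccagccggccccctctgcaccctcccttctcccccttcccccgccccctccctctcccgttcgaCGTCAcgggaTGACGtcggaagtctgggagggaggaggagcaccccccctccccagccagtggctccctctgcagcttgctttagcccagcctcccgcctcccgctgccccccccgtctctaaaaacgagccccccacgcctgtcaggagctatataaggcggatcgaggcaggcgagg
Nr4a1 and Nr4a3 each held 4 cores in these bases, and Npas4 held 2. A match is a description of the letters and not evidence of binding.

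Late response genes, which follow the first wave and encode growth factors and secreted peptides, moved both ways, and their balance depended on the setting. Of 20 tested, 6 rose and 3 fell (median 0.16, and -0.01 with upper quartile scaling, -0.11 with equal totals outside Rn45s and -0.05 unscaled). Between the sides 27.9% of all genes were higher and 25.8% lower. With equal totals 2 rose and 12 fell (median -0.47), and with the GC correction 10 rose and 0 fell (median 0.33). Vgf, a secreted neuropeptide precursor that neurotrophins induce, was at 241, 251 and 393 (Basal), 552, 662 and 655 (Early), 2213, 2288 and 1946 (Late) and 1693, 2048 and 1690.0 (Reactivated). The lowest later value was more than 2-fold above the highest of the other side (2.20 ± 0.13, adjusted p = 1.01e-07, edgeR), and Early was above Basal by 1.07 ± 0.18, adjusted p = 0.00211 (edgeR). Nptx2, a pentraxin that gathers AMPA receptors, rose by 0.90 ± 0.16, with 232 ± 50.8 in Reactivated, 104 ± 10.0 in Late, 116 ± 3.76 in Early and 60.2 ± 18.8 in Basal. Bdnf, the neurotrophin, rose by 0.75 ± 0.18, and it was high in Late, at 710.0 ± 183 against 359 ± 145 in Reactivated. Ptgs2, the inducible prostaglandin synthase, fell by 0.65 on the log2 scale. It had peaked in Early, at 157 ± 19.0, against 61.3 ± 15.7 in Basal and 67.8 ± 15.8 in Late.

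**Figure D2:**
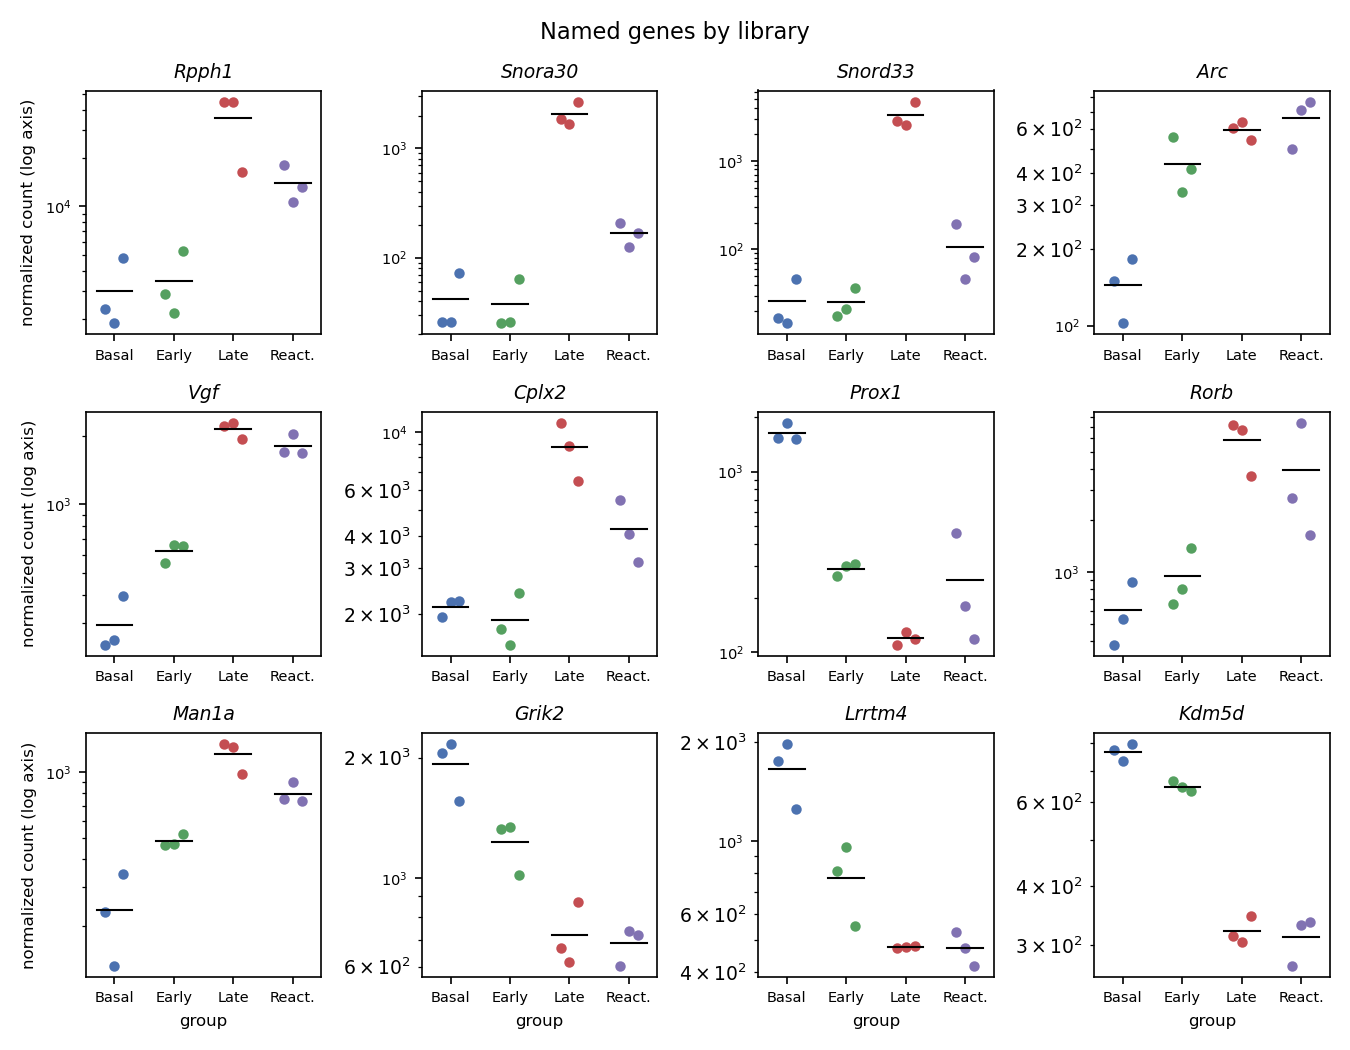
Normalized counts of 12 named genes on log axes, 1 panel per gene and 1 point per library, with a black line at each group mean (n = 3). Rpph1, Snora30, Vgf, Cplx2, Rorb and Man1a separate the sides upward, Grik2, Lrrtm4 and Kdm5d separate them downward, and in Arc and Prox1 Early sits beside the later groups.

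Markers of hippocampal subfields differed, and most granule cell and CA1 markers already differed between Early and Basal. Of 14 markers of dentate granule cells, 11 fell and 0 rose (median -1.34). Their summed counts were 12302 to 18772 (Basal), 4006 to 5097 (Early), 4355 to 6275 (Late) and 3794 to 5909 (Reactivated). In Early against Basal 12 of the 14 fell (median -2.02), where 2.66% of all genes were lower. Reactivated against Early had a median of -0.01 with 1 lower, against 12.7% of all genes. Prox1, the transcription factor that sets granule cell identity, was at 1543, 1861 and 1505 (Basal), 265, 299 and 307 (Early), 110.5, 129 and 119 (Late) and 457, 180.4 and 119 (Reactivated). Basal stood far above all others, and 1 Reactivated library lay above the Early libraries. Prox1 fell by 2.00 ± 0.24 on the log2 scale (adjusted p = 1.37e-05, edgeR). Lct, the lactase gene, was the 1 granule cell marker whose sides did not overlap, with 54.0 ± 10.2 in Late and 57.5 ± 30.2 in Reactivated against 126 ± 11.6 in Early and 536 ± 108 in Basal.

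CA1 pyramidal markers rose in 9 of 11 cases and fell in 1 (median 1.01). With equal totals 4 rose and 2 fell (median 0.41), and with the GC correction 8 rose and 1 fell (median 0.58). Their summed counts were 1025 to 1363 (Basal), 2429.6 to 2806 (Early), 3502 to 4102 (Late) and 3337 to 4068 (Reactivated). Early against Basal had 8 of the 11 higher, where 3.36% of all genes were higher. Late against Early had 3 higher and 2 lower, near the 22.0% and 20.3% of all genes. Reactivated against Early had 4 and 1, against 13.5% and 12.7%. Man1a, a mannosidase of the Golgi, was at 231, 131 and 343 (Basal), 464, 471 and 519 (Early), 1337, 1299 and 972 (Late) and 749, 898 and 733 (Reactivated), without overlap (1.53 ± 0.18, adjusted p = 9.54e-06, edgeR). Pou3f1, a POU transcription factor, rose by 1.94 ± 0.20, also without overlap, and Spink8, a protease inhibitor, fell by 1.90 on the log2 scale from low counts. Of 12 CA3 and CA2 markers 7 rose and 2 fell (median 0.38), and with equal totals 3 rose and 4 fell (median -0.22). Rgs14, a signalling regulator of CA2, rose by 1.04 ± 0.18 and Hs3st4 by 1.54 ± 0.17.

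Genes that mark the subiculum and cortex rose in 7 of 10 cases and fell in 1 (median 1.05, or 0.45 with equal totals, where 4 rose and 2 fell). In Early against Basal 3 rose. The later libraries lay above the others in summed counts, which were 2802 to 4023 (Basal), 4007 to 4416 (Early), 10662 to 20360.2 (Late) and 7215 to 13105 (Reactivated). Rorb, a nuclear receptor of cortical layer IV, was at 381, 539 and 883 (Basal), 657, 797 and 1383 (Early), 7148, 6675 and 3634 (Late) and 2697, 7369 and 1638 (Reactivated), so that the later side ranged widely while staying above the other (2.66 ± 0.35, adjusted p = 2.58e-05, edgeR). Bcl11b, a factor of deep layer and CA1 neurons, rose by 1.81 ± 0.18, from 1087 ± 145 in Early to 7649 ± 3049 in Late and 2164 ± 418 in Reactivated. Foxp2, another deep layer factor, rose by 2.04 ± 0.20.

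Interneuron markers were lower in 10 of 20 cases and higher in 2 (median -0.47, or -1.10 with equal totals). Gad1 and Gad2, which make GABA, fell by 0.53 each on the log2 scale. Adarb2, of interneurons from the caudal eminence, was at 1400.3, 1724 and 1639.7 (Basal), 855, 827 and 877 (Early), 727, 676 and 657 (Late) and 764, 636 and 599 (Reactivated). All later libraries lay below the rest, and Early lay between (-0.78 ± 0.09, adjusted p = 1.39e-05, edgeR). Vip, a neuropeptide, fell by 1.87 on that scale and was 215 ± 58.7 in Basal against 18.0 ± 7.24 in Early. Pvalb, the calcium buffer of fast-spiking cells, and Slc32a1, the vesicular GABA transporter, rose by 0.82 and 0.49. In Early against Basal 6 of the 20 markers fell and 3 rose, against 2.66% and 3.36% of all genes. Late against Early had 5 lower and 2 higher, where 20.3% of all genes were lower and 22.0% higher. Reactivated against Early had 3 lower and 1 higher (median 0.01), against 12.7% and 13.5%.

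Markers of cells that a NeuN sort should leave out were counted in every library. Microglia markers held 2 genes that rose and 1 that fell of 7 tested, and Tmem119, C1qa, C1qb, Trem2 and Tyrobp were too low to test. Itgam, an integrin chain, was at 242, 299 and 312 (Basal), 268, 245 and 338 (Early), 4505, 3733 and 3224 (Late) and 903, 485 and 365 (Reactivated), and Cx3cr1, the fractalkine receptor, rose by 2.25 ± 0.22. Csf1r and P2ry12, which also define microglia, did not pass, at -0.68 each. Summed microglia counts were 707 to 819 (Basal), 682 to 822 (Early), 5688 to 9778 (Late) and 859.7 to 2055 (Reactivated). Of 11 oligodendrocyte markers 4 rose and 2 fell (median -0.25, with 3 and 6 at equal totals), with sums of 2585 to 3209 (Basal), 1918 to 2524 (Early), 4968 to 10221 (Late) and 3242 to 8231 (Reactivated). In Late against Basal 3 of the 11 rose and 6 fell (median -1.06), so most markers did not share the higher Late sums. In that pair 3981 of all 15668 genes were higher and 3706 lower. The myelin gene Mobp rose by 1.15 ± 0.20 and Ermn was among those that fell, while Mog and Mag did not pass. Of 14 astrocyte markers 2 rose and 0 fell, Sox9 by 2.57 ± 0.22 and S100b by 1.04 ± 0.21, and Gfap, Aqp4 and Slc1a3 did not pass. Astrocyte sums were 3449 to 6552 (Basal), 3675 to 6019 (Early), 4190.0 to 5602 (Late) and 4701 to 9715 (Reactivated). In Late against Basal 2 of the 14 astrocyte markers rose and 6 fell (median -0.83). Vessel and choroid plexus markers had 0 and 2 genes higher and 1 and 3 lower of 10 and 9, and of 9 oligodendrocyte precursor markers 0 rose and 2 fell. Of all genes 27.9% were higher and 25.8% lower. Their part in the results for other genes was not tested.

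Genes of the presynaptic release machinery rose in 16 of 21 cases and fell in 0 (median 0.52). With upper quartile scaling 12 rose and 1 fell (median 0.35), and with equal totals 7 rose and 8 fell (median -0.09), so this direction holds relative to the bulk of the genes. Cplx2, a complexin that clamps vesicle fusion, was at 1947, 2227 and 2242 (Basal), 1753, 1534 and 2425 (Early), 10825, 8823 and 6509 (Late) and 5504, 4065 and 3172 (Reactivated). The later side was higher without overlap, with Late the highest (1.59 ± 0.16, adjusted p = 3.45e-06, edgeR). Its relative Cplx1 rose by 1.53 ± 0.17 and was highest in Reactivated. Slc17a7, the vesicular glutamate transporter VGLUT1, rose by 0.98 ± 0.10, without overlap. Syp, Rab3a, Nsf, Syt1 and Erc2 were the 5 that did not pass. On the postsynaptic list 10 of 20 rose and 1 fell (median 0.27, or 0.17 with the GC correction). With equal totals 4 rose and 12 fell (median -0.35). Shank1, a scaffold of the postsynaptic density, rose by 0.91 ± 0.13 and Dlgap3, which binds Shank proteins, by 1.22 ± 0.15, both without overlap, and Nrgn, a calmodulin-binding protein, rose by 1.00 ± 0.12. Dlg2, which encodes the scaffold PSD-93, fell by 0.66 on the log2 scale.

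Receptors for GABA were lower. Of 12 GABA-A subunit genes 9 fell and 1 rose (median -0.56). With the GC correction 3 fell and 2 rose, with a median of -0.22, and with the Rn45s share in the fit 0 passed and the median was 0.41. In Late against Early 7 of the 12 fell and 2 rose, where 20.3% of all genes were lower and 22.0% higher. Reactivated against Early had 2 lower and 0 higher (median -0.36), near the 12.7% of all genes that were lower. Gabra4 fell by 0.96 on the log2 scale, and Gabra3 rose by 1.18 ± 0.17, with 501 ± 58.4 in Late against 207 ± 47.0 in Reactivated. Of 17 ionotropic glutamate receptor genes 3 rose and 6 fell (median 0.11, and -0.05 with upper quartile scaling), and with equal totals 0 rose and 12 fell (median -0.51). As scaled throughout, 27.9% of all genes were higher and 25.8% lower between the sides. The kainate subunit Grik2 was at 2049, 2163 and 1556 (Basal), 1326, 1344 and 1016 (Early), 667, 617 and 870.3 (Late) and 603, 738 and 721 (Reactivated), without overlap (-1.13 ± 0.12, adjusted p = 6.99e-06, edgeR). The AMPA subunit Gria2, which sets calcium permeability, fell by 0.64, and the NMDA subunit Grin2a by 0.47. The kainate subunits Grik3, Grik4 and Grik5 rose by 0.66, 0.55 and 0.64.

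Voltage-gated channel genes split 11 higher to 6 lower of 27 (median 0.10, and -0.07 with upper quartile scaling), and 1 to 18 with equal totals (median -0.53). As scaled throughout, 27.9% of all genes were higher and 25.8% lower. Kcnq5, of the M-current, rose by 0.91 ± 0.10, but Reactivated lay below Early, at 479 ± 7.99 and 717 ± 68.5. Hcn2, a pacemaker channel, rose by 0.65, and differed by -0.13 with the GC correction. Among synaptic adhesion genes 7 of 16 rose and 5 fell (median 0.13, and -0.03 with upper quartile scaling), and 1 rose and 11 fell with equal totals (median -0.49). The neurexins Nrxn2 and Nrxn3 rose, by 0.82 and 0.37. Of the LRRTM genes, whose proteins bind neurexins from the postsynaptic side, Lrrtm2, Lrrtm3 and Lrrtm4 fell, by 0.87, 0.64 and 1.25 on the log2 scale, and Lrrtm1 did not pass. Lrrtm4 was at 1755, 1972 and 1252 (Basal), 810.0, 958 and 553 (Early), 474, 478 and 480.0 (Late) and 529, 475 and 418 (Reactivated), with Early between Basal and the later groups and no overlap of the sides (-1.25 ± 0.14, adjusted p = 8.46e-06, edgeR).

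**Figure D3:**
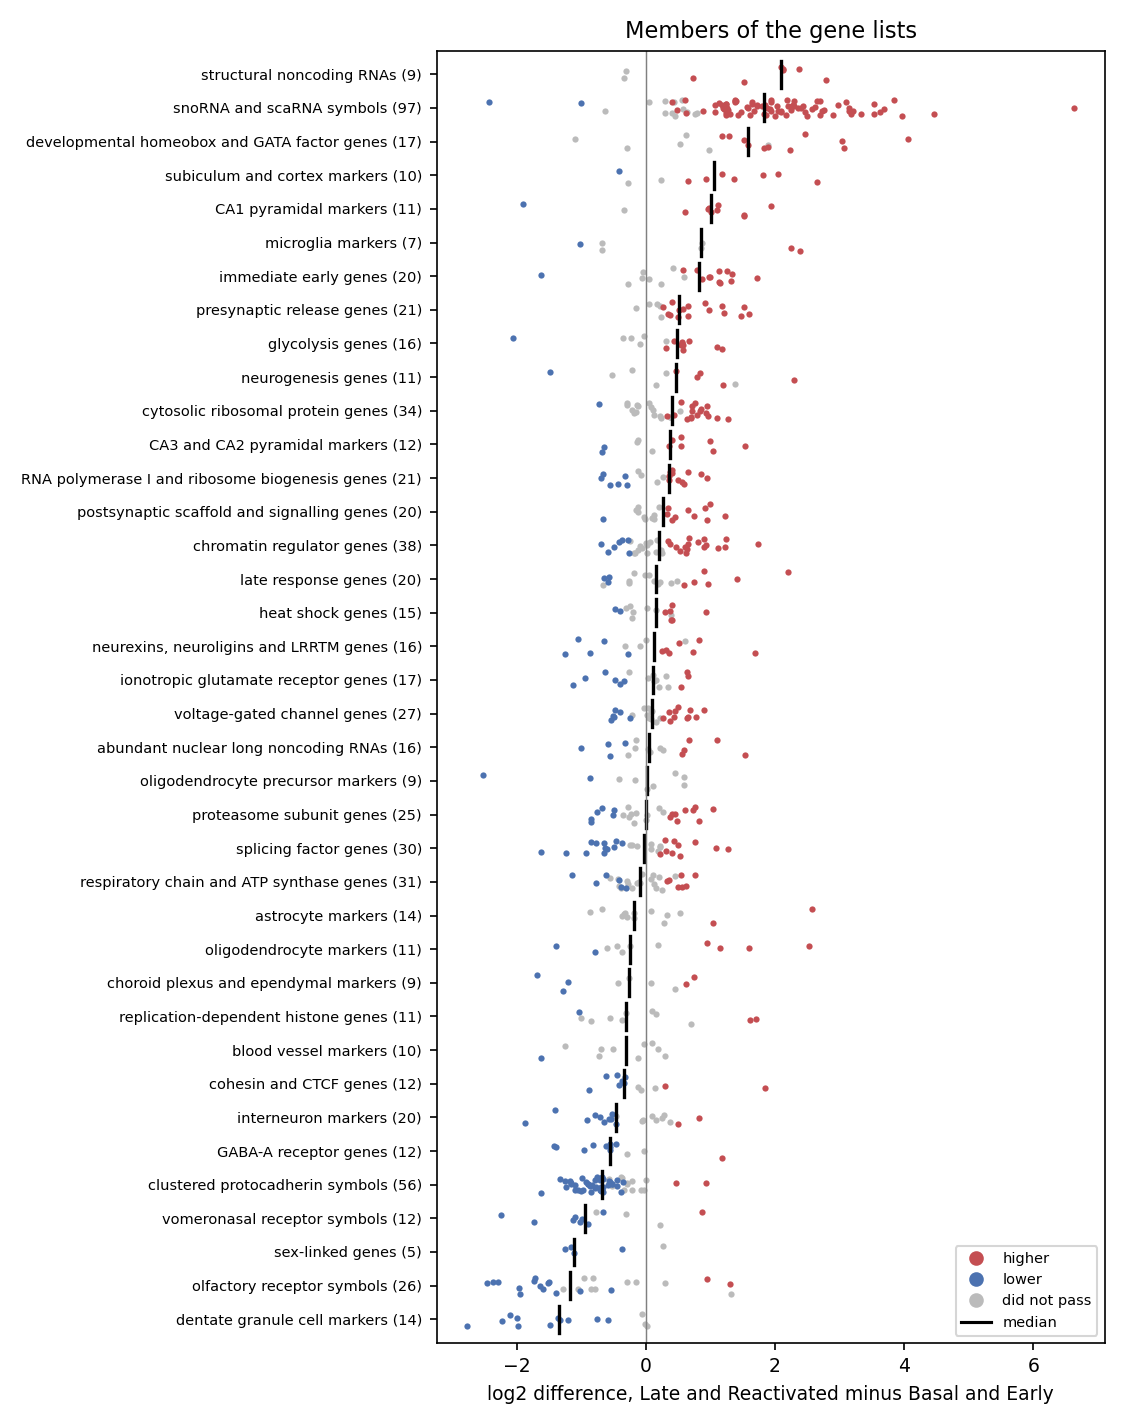
Log2 difference of the later side from the other for each tested member of the gene lists, 1 point per gene, red where it was higher, blue where lower and grey where it did not pass, with a black bar at the list's median and the number tested in brackets. The microRNA and keratin lists are not drawn. Medians run from -1.34 in granule cell markers to 2.09 in structural noncoding RNAs.

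Genes of energy supply and protein synthesis differed within the later side too. Of 34 cytosolic ribosomal protein genes 17 rose and 1 fell (median 0.41, and -0.08 with the Rn45s share in the fit). With equal totals 3 rose and 13 fell (median -0.20). Reactivated against Late had 20 higher and 0 lower, where 10.3% of all genes were higher and 12.3% lower. Late against Early had 5 and 5, below the shares of all genes. Rps15 was at 106, 111 and 105 (Basal), 121, 132 and 169.5 (Early), 240.2, 222 and 179 (Late) and 480.5, 482 and 291 (Reactivated), without overlap (1.27 ± 0.15, adjusted p = 9.56e-06, edgeR). Of 16 glycolysis genes 10 rose and 1 fell (median 0.48, or 0.30 with the GC correction), and with equal totals 2 rose and 5 fell (median -0.11). In Early against Basal 7 of the 16 rose, where 3.36% of all genes were higher. Reactivated against Late had 8 higher and 0 lower. Pkm, the pyruvate kinase, rose by 1.10 ± 0.15 without overlap and Tpi1, triose phosphate isomerase, by 1.19 ± 0.13. Eno1 fell to counts of 0 to 1.87 in Late while Reactivated stood at 30.9 ± 9.76, and its value is uncertain because near-identical copies of the gene can share its reads. Of 31 respiratory chain and ATP synthase genes 7 rose and 6 fell (median -0.10), below the 27.9% and 25.8% of all genes between the sides. With equal totals 0 rose and 21 fell. Reactivated against Late had 15 higher and 1 lower. Of 15 heat shock genes 6 rose and 2 fell (median 0.16). With upper quartile scaling 1 rose and 4 fell (median -0.01). Hsp90ab1, a cytosolic chaperone, rose by 0.94 ± 0.12 without overlap. Of 25 proteasome genes 9 rose and 6 fell, or 1 and 15 with equal totals. Psmd2, of the regulatory particle, rose by 1.04 ± 0.13, and Psma3, of the core, fell by 0.86 ± 0.12 on the log2 scale.

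Genes that act in the nucleus moved both ways, where 27.9% of all genes were higher and 25.8% lower. Of 21 genes of RNA polymerase I and ribosome biogenesis 11 rose and 6 fell (median 0.36, and -0.10 with the Rn45s share in the fit). With equal totals 1 rose and 10 fell (median -0.25), and with the GC correction 9 rose and 1 fell (median 0.09). Ubtf, the factor that opens ribosomal genes, was at 922, 938 and 1185 (Basal), 868, 857 and 1272 (Early), 2379, 2075 and 1858 (Late) and 2002, 1723 and 1607 (Reactivated), without overlap (0.94 ± 0.12, adjusted p = 2.99e-05, edgeR). The nucleolar proteins Nop56 and Fbl, which sit on box C/D snoRNAs, rose by 0.86 and 0.66, while their partner Nop58 fell by 0.66 on the log2 scale and Polr1b, a polymerase subunit, by 0.69. Of 30 splicing factor genes 10 rose and 12 fell, or 11 and 7 with the GC correction and 2 and 23 with equal totals. Hnrnpd rose by 1.09 ± 0.13 and Hnrnpu by 1.28, while Hnrnpa3 fell by 1.62 and Srsf10 by 0.85.

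Chromatin regulators rose in 17 of 38 cases and fell in 7 (median 0.21, -0.05 with equal totals outside Rn45s, -0.05 unscaled and -0.13 with the Rn45s share in the fit). With equal totals 6 rose and 23 fell (median -0.40). Chd5, a neuronal nucleosome remodeller, was at 2687, 2447 and 5286 (Basal), 3466, 3944 and 6257 (Early), 19134, 18065 and 12864 (Late) and 9808, 10922 and 10604 (Reactivated), without overlap and highest in Late (1.73 ± 0.20, adjusted p = 9.19e-06, edgeR). Chd3, its relative in the NuRD complex, rose by 0.93 ± 0.11. The class IIa deacetylases Hdac4, Hdac5 and Hdac9 rose by 1.24, 1.12 and 1.23. The acetyltransferases Crebbp and Ep300 fell by 0.26 and 0.49 on the log2 scale, and Setd2, which methylates H3K36, by 0.69. Of 12 cohesin and CTCF genes 7 fell and 2 rose (median -0.33). With the GC correction 3 fell and 4 rose, with a median of 0.02. Nipbl, which loads cohesin, was at 1849.8, 1729.5 and 1363 (Basal), 1538, 1447 and 1133 (Early), 772, 707 and 829 (Late) and 670.5, 1015 and 915 (Reactivated), without overlap (-0.88 ± 0.13, adjusted p = 5.25e-05, edgeR). Yy1, a looping factor, rose by 1.85 ± 0.15, with 1079.6 ± 244 in Late, 401 ± 55.1 in Reactivated and 185 ± 40.1 in Basal. Of 11 replication-dependent histone genes 2 rose and 1 fell (median -0.31), below the 27.9% and 25.8% of all genes. The 2 that rose encode linker histones, Hist1h1c and Hist1h1e.

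Clustered protocadherins, whose isoforms give each neuron its own surface code, were lower. Of 56 tested 42 fell and 2 rose (median -0.68), and 16 had no overlap between the sides, all of them lower. The summed counts were 8573 to 9152 (Basal), 6416 to 7231 (Early), 4831 to 5033 (Late) and 4846 to 6074 (Reactivated). Pcdhgb4 was at 193, 205 and 222 (Basal), 124, 142 and 142 (Early), 64.8, 74.0 and 65.4 (Late) and 71.6, 82.7 and 118 (Reactivated) (-1.09 ± 0.14, adjusted p = 2.07e-05, edgeR), and Pcdhb13 rose by 0.94 ± 0.15. Members of a cluster share exons and near-identical sequence, so the split of reads between them is uncertain.

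Olfactory and vomeronasal receptors and developmental factors, families that adult neurons hardly use, also differed. Of 26 olfactory receptor genes that passed the count filter, out of 1122, 14 fell and 2 rose (median -1.17). Of the 26, 15 passed the filter only through Basal and Early libraries, so their low values on the later side were in part fixed by the filter. Olfr613 was at 11665, 11019 and 12363 (Basal), 11099.8, 12928 and 11159 (Early), 2529, 2439 and 2397 (Late) and 6315, 6225 and 7805 (Reactivated), with no overlap (-1.52 ± 0.09, adjusted p = 1.22e-07, edgeR). Of 12 vomeronasal receptor genes 8 fell and 1 rose (median -0.94), and with the GC correction 4 fell and 1 rose (median -0.45). Of these 12, 3 passed the filter only through Basal and Early libraries, and 2 of the 3 fell, so this count too is in part fixed by the filter. Of 17 developmental homeobox and GATA factor genes, out of 30, 11 rose and 0 fell (median 1.58). Of the 17, 6 passed the filter only through Late libraries, 4 of the 11 among them, so this count is in part fixed by the filter. Without any 1 Late library 14 were tested and 9 rose, and of the 6 with a count of 10 in all libraries 5 rose. Late was far above the other 3 groups in summed counts. These were 288 to 364 (Basal), 319.9 to 367 (Early), 1651 to 2357 (Late) and 326 to 683 (Reactivated). Reactivated against Early had 2 of the 17 higher, near the 13.5% of all genes. Reactivated against Late had 12 lower, where 12.3% of all genes were lower. Foxa3, a liver factor, was at 9.07, 20.2 and 13.6 (Basal), 20.9, 22.1 and 40.1 (Early), 508, 441 and 273 (Late) and 110.1, 66.9 and 39.1 (Reactivated) with 1 Reactivated library below the highest Early library (3.07 ± 0.28, adjusted p = 1.70e-06, edgeR). Cdx2, an intestinal factor, was at 211 ± 47.4 in Late and at most 4.40 in any other library. Of 11 neurogenesis genes 5 rose and 1 fell (median 0.46), and with equal totals 2 rose and 3 fell (median -0.17). Of 12 keratin genes 4 rose and 2 fell (median 0.29), where 27.9% of all genes were higher and 25.8% lower. Of the 12, 4 passed the filter only through later libraries, and 2 of these rose, so the keratin count is in part fixed by the filter. With equal totals 3 keratin genes rose and 4 fell (median -0.31).

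Genes of the Y chromosome were lower. Kdm5d, a histone demethylase, was at 773, 733 and 797 (Basal), 665, 646 and 634 (Early), 313, 304 and 346 (Late) and 271, 331 and 336 (Reactivated), without overlap (-1.15 ± 0.09, adjusted p = 5.94e-07, edgeR). Uty and Eif2s3y fell by 1.24 and 1.11 on the log2 scale, also without overlap. Ddx3y fell by 0.37, or differed by 0.26 with the GC correction. Xist, which is transcribed from the inactive X chromosome of females, differed by 0.27 and did not pass. The sex of the pooled mice is not given in the sources used here.

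By the naming rule, the largest rises at normalized counts of at least 50 on the higher side were those of Tmem38b, Hoxd11, Ube2u, Pigr, Bcmo1, Ednrb, Sox8 and Gbp5. Tmem38b, a cation channel of the endoplasmic reticulum, was at 531, 418 and 958 (Basal), 499, 489 and 1125 (Early), 12805, 14608 and 20912 (Late) and 12088, 3285 and 8215 (Reactivated). Both later groups were above all others, and the second Reactivated library was the lowest of them (4.07 ± 0.34, adjusted p = 8.48e-07, edgeR). Sox8, a transcription factor, was at 97.2, 85.3 and 126 (Basal), 105, 113 and 124 (Early), 3493, 3560.1 and 1240.1 (Late) and 193, 421 and 165 (Reactivated) (2.96 ± 0.28, adjusted p = 2.06e-06, edgeR). In Sox8 the Late libraries were several times above Reactivated, which in turn was above Basal and Early. Among these 8 genes all but Tmem38b were lower in Reactivated than in Late, with log2 differences from -2.11 for Hoxd11 to -3.40 for Sox8. With counts of at least 500 the list added Tbx18, a T-box factor, at 2.86 ± 0.29, and Pdk4, a kinase that curbs pyruvate use, at 2.86 ± 0.21.

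The largest falls were those of Cenpp, Fcrl6, Slfn8, Tmem45b, Zfp758, Gimap8, Slc6a18 and Slc15a2. Cenpp, a centromere protein gene that spans 6 other RefSeq genes, was at 79.0, 101 and 52.4 (Basal), 78.3, 46.9 and 40.9 (Early), 4.80, 9.25 and 5.60 (Late) and 4.13, 3.52 and 11.5 (Reactivated) (-3.29 ± 0.33, adjusted p = 3.32e-06, edgeR). Slc6a18, an amino acid transporter, was at 1931, 1825 and 911 (Basal), 1953, 1879 and 943 (Early), 180.1, 243 and 189.6 (Late) and 361, 161 and 311 (Reactivated). Basal 3 and Early 3 were the lowest of their groups, and the highest later library had 361 (-2.73 ± 0.25, adjusted p = 1.50e-06, edgeR). At counts of at least 500, Psg28, a pregnancy-specific glycoprotein, was at 1919.8, 2066 and 1905 (Basal), 2109.5, 2277 and 2222 (Early), 112, 155 and 116 (Late) and 688, 1084 and 1210.4 (Reactivated) (-2.55 ± 0.14, adjusted p = 7.63e-08, edgeR). Smn1, the survival motor neuron gene, was at 1007, 1204 and 1286 (Basal), 1267, 1359 and 1271 (Early), 106, 114 and 127 (Late) and 465, 722 and 757 (Reactivated) (-2.17 ± 0.13, adjusted p = 1.01e-07, edgeR). Late was the lowest group in both, and Reactivated lay between. Nuf2, Skint4, Zmym1, Tmem69 and Dcdc2c fell by 1.65 to 2.06 on the log2 scale, each without overlap. Psg28, Skint4, Slfn8 and Gimap8 belong to families of similar genes, so their reads may be split with relatives.

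Base composition went with the direction of the difference. The median GC content of the transcript was 52.8% in higher genes, 45.6% in lower genes and 50.2% in those that did not pass, among 15460 of the 15668 genes with a sequence in the annotation (98.7%). Among the 1547 genes with the lowest GC content 14.5% rose and 50.7% fell, with a median log2 difference of -0.49. Among the 1546 with the highest, 52.4% rose and 4.98% fell, with a median of 0.50. The gradient was seen in each of the 4 pairs between the sides, from -0.57 to 0.50 in Late against Basal and from -0.41 to 0.48 in Reactivated against Early. Within sides it was 0.01 to 0.02 in Early against Basal and 0.15 to -0.07 in Reactivated against Late. With a GC offset in each library 7572 genes passed, 6277 of them among the 8408 with the same sign. Promoters of higher genes had a median GC content of 61.7%, those of lower genes 58.3% and those of all genes tested 60.3%.

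**Figure D4:**
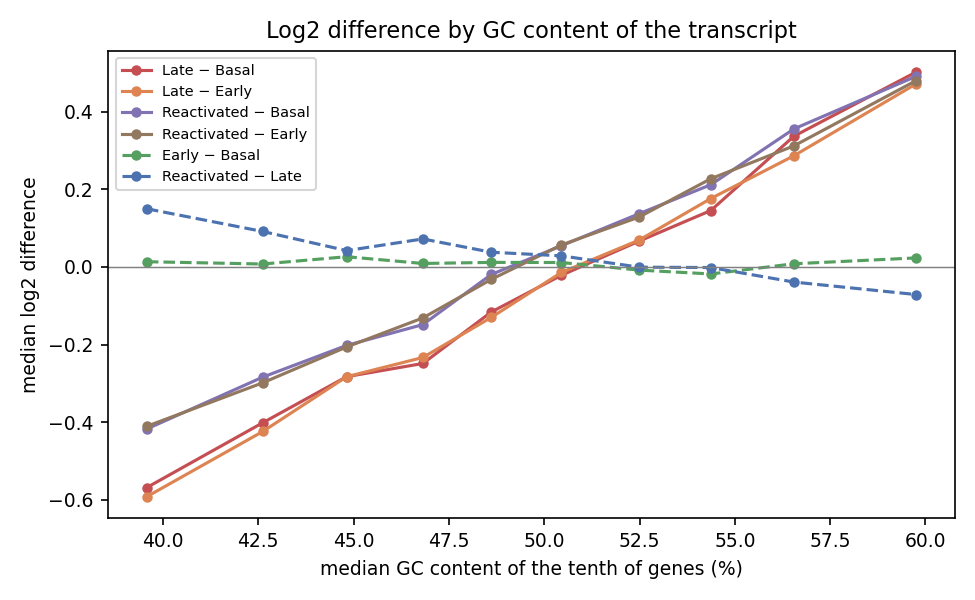
Median log2 difference of 10 equal groups of genes ordered by GC content of the transcript, against the median GC content of each group in percent, for the 4 pairs of groups between the sides (solid) and both pairs within a side (dashed). The solid lines climb from between -0.59 and -0.41 to between 0.47 and 0.50, and the dashed lines stay between -0.07 and 0.15.

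Expression level went with direction as well. Among the 3134 genes with the lowest mean normalized counts 289 rose and 730 fell (median -0.29), and among the 3134 with the highest 1497 rose and 653 fell (median 0.23). By RefSeq class, 4053 of 14171 protein-coding genes rose and 3446 fell (median 0.03), and of 149 transcribed pseudogenes 22 rose and 64 fell (median -0.58). The part of GC content, level and Rn45s in the differences of single genes was not tested beyond the fits given here.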

How the data were processed

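Nuclear RNA of 12 sorted libraries, 3 per group, was analysed from 1 table of counts per gene that the authors deposited. The file is named as normalized, yet its counts are whole, differ in total and use every whole number from 1 to 30 in each library, so they were taken as raw. Per the submitters' processing notes, which give no roles, Bowtie2 2.0, Cufflinks 2.2, DESeq2 and build mm9 were used. Which counter, annotation and strand rule made the table is not given in the sources used here. Per the labels' protocols, libraries were made with a stranded pico kit, depletion of ribosomal cDNA and 15 PCR cycles, whereas the design text names SmartSeq2. A depletion step can leave differing shares of ribosomal reads. Totals of 4838166 to 11120255 counts limit precision for low genes.

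Genes with a count of 10 or more in at least 3 libraries (15668) were scaled by TMM and tested in 1 fit of 4 group means with the quasi-likelihood test of edgeR 4.0.16 (R 4.3.3, two-sided, Benjamini-Hochberg adjusted over all genes, threshold 0.05). Standard errors are the log2 difference over the square root of F. Normalized counts are counts over effective library size, relative to its geometric mean. The fit was tested on simulated data. The 27 rows whose symbols had become dates hold at most 0.147% of a library and were not named. P-values measure the spread between pools. GC content came from GENCODE transcripts matched by symbol, classes and sequences from RefSeq.

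Alternatives were other scalings, DESeq2 1.42.0, limma-voom (limma 3.58.1), other filters, a replicate block, a GC offset, the Rn45s share as covariate, 2 side means and leaving out libraries. The members and lists (34 typed, 6 by symbol pattern) were chosen with earlier results of these data known. Named genes were the 8 largest changes per direction without overlap at mean counts of 50 and of 500 on the higher side, 9 set genes, up to 4 per list, and others from the lists, the last chosen after their values were seen. Some genes that the rule picks are not reported here.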

Additional observations from a re-analysis of the deposited data

How the results depend on the processing

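Under DESeq2 size factors and the DESeq2 test, all 233 reported results were kept, as were 231 with limma-voom and 232 without a filter. For a gene, kept means the same direction and side of the threshold. For a count of genes it means a change of at most 1.5 times. For a list median it means a shift below the spread of its list, even if the sign of a small median changed. That spread is the SD of the list's median log2 level between libraries of a group, pooled over groups. A replicate block, with the number as a term, gave 8418 genes, and 232 of 233 results were kept. Residuals of same-numbered libraries correlated at r of -0.205 to 0.461 over all pairs of groups. Within sides r was 0.31, 0.132 and 0.461 for Basal with Early, and 0.057, 0.064 and 0.153 for Late with Reactivated. Basal 2 correlated best with Early 1, at 0.152. Between sides r was -0.205 to 0.032. The block is common to all 4 groups, so a pairing within sides only was not tested. Leaving out 1 library gave 7419 to 8721 genes past the threshold, 941 to 2556 in all 4 pairs, 488 to 1224 for Early against Basal and 2135 to 3827 for Reactivated against Late. The 598, 488, 549 and 618 genes of Early against Basal without Basal 1, Basal 2, Early 1 and Early 2, and the 2135 and 2183 of Reactivated against Late without Late 1 and Late 2, moved by over 1.5 times; fewer samples entered. Unscaled values gave 5456 genes, 616 in all 4 pairs, 368 for Early against Basal and 1746 for Reactivated against Late, and equal totals gave 3521 in all 4 pairs. With the Rn45s share in the fit these were 6, 0 in all 4 pairs and 1859 for Reactivated against Late, with a median standard error of 0.46 in place of 0.17. The cause of the other changes was not tested.

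A list median is named here as turned only where, as reported, it was larger in size than the spread of its list. With equal totals the median turned for late response (-0.47), chromatin regulator (-0.40), postsynaptic (-0.35), keratin (-0.31), polymerase I (-0.25), CA3 and CA2 (-0.22), ribosomal protein (-0.20), neurogenesis (-0.17), glycolysis (-0.11) and presynaptic genes (-0.091), and the value of Dnajb5 (-0.24), Hsp90aa1 (-0.20), Kcnq3 (-0.13), Nlgn2 (-0.10), 2900097C17Rik (-0.055), Pgam1 (-0.048), Egr1 (-0.045) and Sorcs3 (-0.025). Medians smaller than that spread also changed sign there: oligodendrocyte precursor (-0.62), proteasome (-0.60), abundant long noncoding RNA (-0.57), voltage-gated channel (-0.53), ionotropic glutamate receptor (-0.51), synaptic adhesion (-0.49) and heat shock genes (-0.47). The late response median was -0.11 with equal totals outside Rn45s, -0.053 unscaled and -0.010 with upper quartile scaling, and the chromatin regulator median was -0.051 and -0.050 in the first and the second of these. With the GC offset Ddx3y (0.26), Gabra2 (0.073), Malat1 (0.020), the cohesin median (0.016), Dnaja1 (0.0012), Nlgn2 (-0.032) and Hcn2 (-0.13) turned, and with the block beside it Ddx3y (0.27), Gabra2 (0.072), Malat1 (0.026), the cohesin median (0.021), Nlgn2 (-0.026) and Hcn2 (-0.12). The microRNA median was 0.21 with a count of 10 in all libraries, 0.22 with 2 side means, 0.10 without Basal 3 and Early 3 (chosen after seeing the data) and between -0.32 (without Reactivated 3) and 0.025 (without Basal 3) when 1 library was left out.

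With the Rn45s share in the fit 161 results lost the threshold and 31 turned, by the same rule for medians. These were the medians of GABA-A (0.41), microglia (-0.028), postsynaptic (-0.049), ribosomal protein (-0.078), polymerase I (-0.10), chromatin regulator (-0.13) and structural RNA genes (-0.19, also without Rn45s, a list chosen after seeing the data). They were also Spink8 (0.55), Ttr (0.43), Tbr1 (0.43), Elavl2 (0.21), Vmn2r-ps129 (0.20), Uty (0.15), Gabra2 (0.13), Nipbl (0.11), Psma1 (0.079), Zmym1 (0.021), Snhg11 (-0.0092), Pcdhb13 (-0.013), Rpph1 (-0.043), Psma4 (-0.047), Cux2 (-0.079), Nop56 (-0.10), Dnajb5 (-0.14), Foxj1 (-0.16), Pvrl3 (-0.17), Rpl19 (-0.17), Rn45s (-0.19), Vmn1r63 (-0.23), Hist1h1c (-0.43) and Krt77 (-0.45). The value of Rn45s comes from a fit on its own share and says nothing about it. Medians smaller than the spread of their list also changed sign in that fit. They were those of choroid plexus and ependymal (0.43), blood vessel (0.29), respiratory chain (0.23), ionotropic glutamate receptor (-0.056) and oligodendrocyte precursor genes (-0.98).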

Other observations

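By chromosome, the share of tested genes that were higher ran from 20.8% on chromosome 18 to 33.1% on chromosome 15 among the autosomes, and the share that were lower from 18.9% on chromosome 15 to 39.2% on chromosome 18. On the X chromosome 115 of 541 genes were higher and 182 lower (median log2 difference -0.18). The 5 tested genes of the Y chromosome were lower. Median transcript length was 3449 bases in higher genes, 3618 in lower genes and 3150 in those that did not pass.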
